A study of Mus musculus with 6 samples.

Results

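The imprinted genes examined here are 41 genes taken from the deposited table by their symbols, out of 55359 genes in all. Every one of the 41 symbols was found once. By textbook knowledge of the mouse, 21 were classed as expressed from the paternal allele and 16 from the maternal allele. Another 4 (Gnas, Grb10, Inpp5f and Blcap) were classed as differing between isoforms or cell types. A class need not hold in every cell type, as for Ube3a, which is expressed from the maternal allele in neurons. The rule that chose the 41 genes uses symbols and no measured value. The libraries were made from total RNA of the habenula, part of the epithalamus, taken at an age of 2 months from C57BL/6 mice. There were 3 wild-type (WT) libraries and 3 libraries labelled Tet2 cKO, a conditional knockout of the 5-methylcytosine dioxygenase gene Tet2. The sources used here do not give the driver of the deletion or its exons. They also do not say that the libraries are from different animals, so a p-value reflects only how these libraries vary, which may be technical. Reads of the maternal and paternal alleles were not counted separately, so a level is the sum over both alleles.

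Genomic imprinting marks certain loci with DNA methylation in the egg or the sperm, and that mark is kept in the body cells of the offspring. Genes at such a locus are then expressed mainly or only from a single parental chromosome, and neighbours are often expressed from opposite chromosomes. Many are growth regulators, and in brain several act in neurons, such as Ube3a, whose loss causes Angelman syndrome in humans, and the paternally expressed genes of the Prader-Willi region. TET enzymes oxidise 5-methylcytosine. The comparison asks how the level of imprinted genes differs in the habenula between libraries labelled Tet2 cKO and WT.

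Library totals lay between 16089676 and 17917987 counts. Tet2 was not lower under its label, at 3.45, 3.46 and 3.71 FPKM (counts scaled to the gene's exon length and to the library total) in WT and 4.47, 4.02 and 3.96 FPKM in the libraries labelled Tet2 cKO (edgeR log2 difference 0.22, SE 0.0768, Benjamini-Hochberg adjusted p = 0.9999). The whole-gene count includes exons that may not be deleted, so it does not check the label, and every direction below is that of the label. Of 20 habenula neuron markers all 20 were detected, and their summed level ranged from 827 to 883 FPKM in the WT libraries, against 779 to 886 FPKM in those labelled Tet2 cKO. That sum is mostly Calb2 and Gap43, which were both highest in WT replicate 3, while WT replicate 3 was the lowest library for 17 of the 20 markers, among them the habenula transcription factor gene Pou4f1 (13.8, 17.0 and 7.61 FPKM in WT) and the receptor gene Gpr151 (60.2, 81.0 and 37.5 FPKM in WT). WT replicate 3 also stood apart over all genes, scoring 32.4 on the first principal component (33% of the variance) where the other 5 libraries lay between -15.6 and 8.21.

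No imprinted gene differed between the groups beyond the test's threshold. Of the 41 genes, 33 had a mean of at least 1 FPKM and were tested together with all 14539 genes above that filter. The edgeR quasi-likelihood test called 0 of the 33 at a Benjamini-Hochberg adjusted p under 0.05, and it called 0% of all tested genes. At an unadjusted p under 0.05 it held 1 of the 33, or 3.03%, against 2.57% of all tested genes, with 0 higher (0.894% of all tested genes) and 1 lower (1.68%). DESeq2 also called 0 of the 33. The gene at an unadjusted p under 0.05 was Dlk1, at 0.562 times its WT level under the Tet2 cKO label. The intervals bound what the libraries allow. For 32 of the 33 genes the 95% interval of the difference lay within 2-fold in either direction, Dlk1 being the exception. For 30 it lay within 1.5-fold, the exceptions being Dlk1, Cdkn1c and Ndn.

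Levels of the imprinted genes differed widely. The mean over 6 libraries exceeded 100 FPKM for 4 genes and 10 FPKM for 16 of the 41, and 8 lay under 1 FPKM. Meg3, a maternally expressed long non-coding RNA, was the highest at 481 FPKM, above 99.8% of tested genes. It took between 0.831% and 0.908% of all counts of a library and between 51.5% and 54.8% of the counts of the 41 genes. The paternally expressed Nap1l5, a relative of nucleosome assembly proteins, followed at 391, 393 and 482 FPKM in the WT libraries, against 403, 448 and 460 FPKM in those labelled Tet2 cKO. Snrpn, which encodes the brain spliceosomal protein SmN, stood at 356, 362 and 416 FPKM in the WT libraries, against 398, 388 and 376 FPKM in the labelled ones. For both genes WT replicate 3 was the highest library and the groups overlapped.

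Below these came Nnat, encoding the small membrane protein neuronatin, at 103 to 124 FPKM in the WT libraries, against 101 to 131 FPKM in those labelled Tet2 cKO. Impact, an inhibitor of the translational stress kinase GCN2, ranged from 94.1 to 102 FPKM in the WT libraries, against 91.2 to 101 FPKM in the labelled ones. Both genes overlapped between the groups. In the order of levels, 26 of the 32 neighbouring pairs of tested genes had library ranges that overlapped. The 6 steps at which every library of the higher gene lay above every library of the lower gene were from Snrpn to Nnat, Gnas to Blcap, Rasgrf1 to Zrsr1, Grb10 to Copg2, Copg2 to Ppp1r9a, and Sgce to Zim1.

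**Figure D1:**
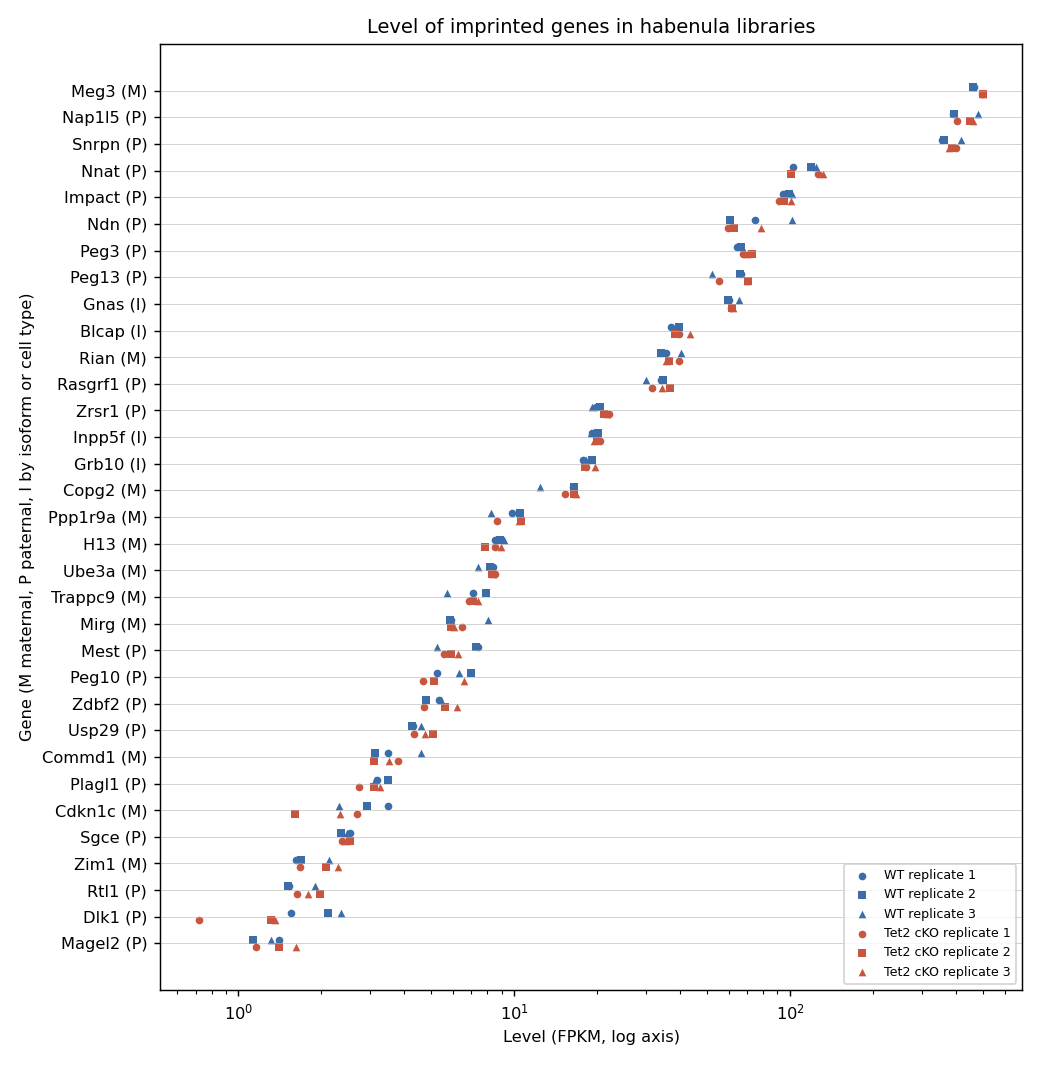
FPKM (log axis) of the 33 tested imprinted genes in each library, ordered by mean level, with WT in blue, Tet2 cKO in red and the marker shape giving the replicate. Levels run from Meg3 at a mean of 481 FPKM down to Magel2 at 1.34 FPKM, and for all but 4 genes the groups overlap.

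The median difference was alike in maternally and paternally expressed genes. Over the 11 tested maternally expressed genes the median log2 difference was 0.04, with 7 higher and 4 lower, counting signs of differences that did not pass the test. Over the 18 tested paternally expressed genes it was 0.04, with 11 higher and 7 lower. The median over all 14539 tested genes was -0.0021, of which 49.1% were above 0, and over the 33 imprinted genes it was 0.04, with 21 above 0. These are descriptions with no test. The 4 genes classed as differing between isoforms or cell types lay between -0.014 and 0.06.

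Summed levels of the classes rested on few genes. Maternally expressed genes summed to 567, 560 and 561 FPKM in the WT libraries, against 601, 602 and 603 FPKM in those labelled Tet2 cKO. Meg3 made up 81.9% to 83.4% of that sum, and without Meg3 the sums were 101, 100.3 and 101 FPKM in the WT libraries, against 103, 100.2 and 103 FPKM in the labelled ones, so that the groups overlapped. Paternally expressed genes summed to 1236, 1256 and 1427 FPKM in the WT libraries, against 1284, 1328 and 1377 FPKM in the labelled ones, of which Nap1l5, Snrpn and Nnat made up 68.7% to 72.2%. All 41 genes together took 1.57%, 1.56% and 1.61% of the counts in the WT libraries, against 1.64%, 1.67% and 1.68% in the labelled ones, and 0.725%, 0.731% and 0.784% against 0.743%, 0.763% and 0.774% with Meg3 left out. The share was thus higher in each library labelled Tet2 cKO than in each WT library with Meg3, and not without it.

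**Figure D2:**
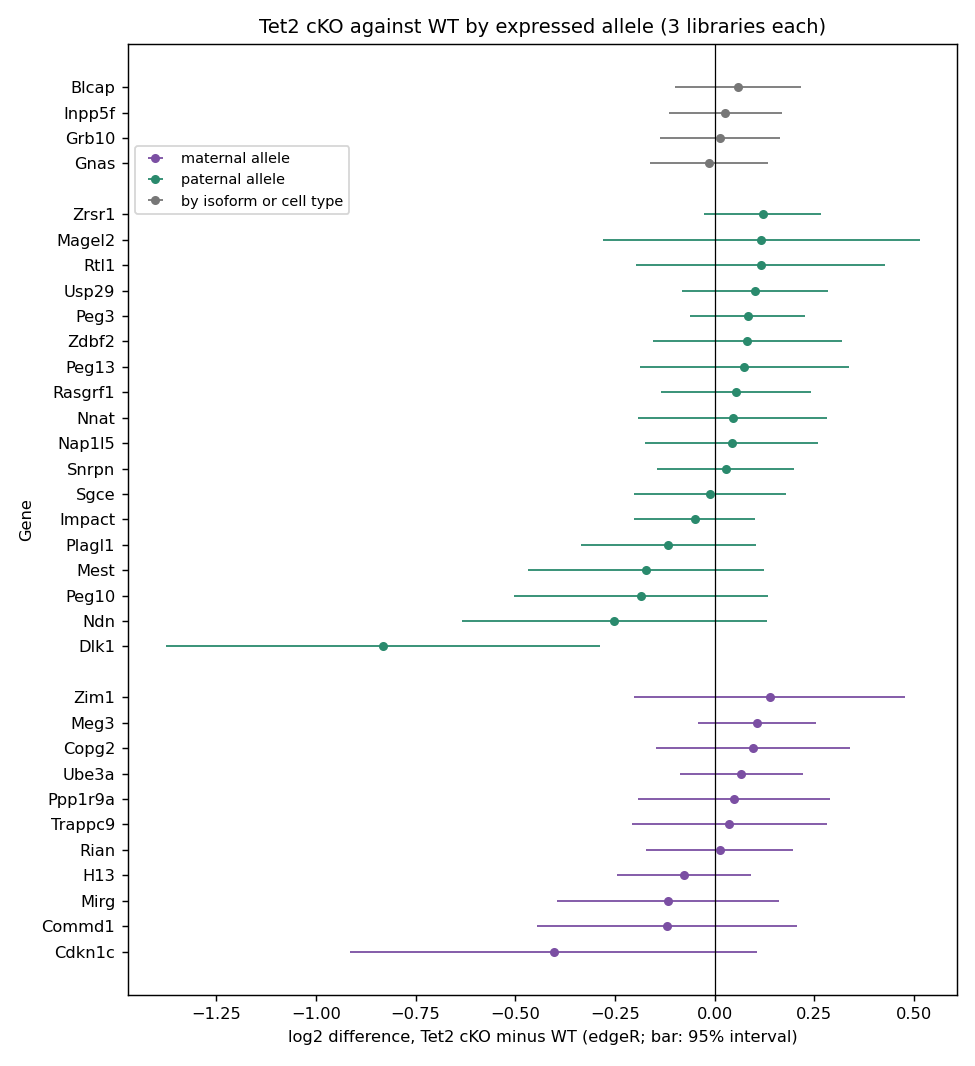
edgeR log2 difference (Tet2 cKO minus WT, 3 libraries each) of each tested imprinted gene with its 95% interval as a bar, grouped by the allele it is expressed from. The interval of 1 gene, Dlk1 at -0.83, lies wholly on one side of 0, and both allele classes scatter around 0.

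Groups did not overlap for 4 of the 33 genes, or 12.1%, against 6.8% of all tested genes. In 3 of the 4 (Zrsr1, Meg3 and Peg3) every library labelled Tet2 cKO was the higher, against 3.34% of all tested genes, and in Dlk1 every such library was the lower, against 3.46%. The differences of Zrsr1, Meg3 and Peg3 were at most 0.12 in log2. The 250 bases upstream of the annotated start of each of these 4 genes are shown because CG dinucleotides are the substrate of the methylation that imprinting uses. Whether these stretches lie in the region that carries the imprint was not examined. They are taken from RefSeq on GRCm38.p6 and read 5′ to 3′ on the gene's strand, with each CG in capitals. The stretches are chr12:109452573-109452822 (plus strand) for Dlk1, chr12:109540746-109540995 (plus strand) for the first of the 2 listed starts of Meg3, chr7:6730420-6730669 (minus strand) for Peg3 and chr11:22971755-22972004 (plus strand) for Zrsr1.
Dlk1: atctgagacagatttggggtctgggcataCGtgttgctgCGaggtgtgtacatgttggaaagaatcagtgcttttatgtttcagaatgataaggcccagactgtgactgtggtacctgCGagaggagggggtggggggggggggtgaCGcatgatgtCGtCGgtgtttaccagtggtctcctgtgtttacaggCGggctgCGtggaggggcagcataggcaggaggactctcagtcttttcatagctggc
Meg3: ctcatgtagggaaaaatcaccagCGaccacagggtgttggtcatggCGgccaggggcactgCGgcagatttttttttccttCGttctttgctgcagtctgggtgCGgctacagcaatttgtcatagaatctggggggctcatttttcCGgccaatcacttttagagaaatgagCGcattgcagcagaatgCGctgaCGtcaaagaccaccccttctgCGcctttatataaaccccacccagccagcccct
Peg3: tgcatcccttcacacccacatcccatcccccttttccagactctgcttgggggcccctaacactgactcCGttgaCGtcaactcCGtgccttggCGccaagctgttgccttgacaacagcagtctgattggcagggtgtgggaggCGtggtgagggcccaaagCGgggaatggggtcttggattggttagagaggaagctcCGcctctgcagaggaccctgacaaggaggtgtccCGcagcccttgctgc
Zrsr1: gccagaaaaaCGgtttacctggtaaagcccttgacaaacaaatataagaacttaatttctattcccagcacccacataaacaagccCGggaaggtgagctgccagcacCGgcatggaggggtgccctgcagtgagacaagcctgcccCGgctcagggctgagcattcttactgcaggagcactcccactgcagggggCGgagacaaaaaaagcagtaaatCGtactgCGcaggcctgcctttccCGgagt
They hold 8 CG in Dlk1, 10 in Meg3, 8 in Peg3 and 8 in Zrsr1. RefSeq's promoter table matched 33 of the 41 genes with 50 starts, whose upstream stretches held a median of 10 CG, against 6 over all 32851 stretches of that length. The motif TGCCGC, which the imprint-keeping zinc finger protein ZFP57 binds, was searched on both strands. It lay in 9 of the 50 stretches, or 18%, and in 8.68% of all stretches, and of the 4 shown only that of Meg3 held it, once. Starts 2 and 3 of the 3 listed for Mest both held it, so the 9 stretches are not 9 genes. The motif itself contains a CG, and CG was more frequent in the stretches of the imprinted genes. The part of CG content in the higher share was not tested. A match of letters is a description, and methylation was not measured here.

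The Dlk1-Dio3 locus on chromosome 12 held the difference farthest from 0, that of Dlk1, and one of those without overlap in the other direction, that of Meg3. Dlk1 (ENSMUSG00000040856, 109452823 to 109463336 on GRCm38, plus strand), paternally expressed, encodes a transmembrane protein related to Notch ligands that inhibits adipocyte differentiation. It stood at 1.55, 2.12 and 2.35 FPKM in the WT libraries, against 0.72, 1.31 and 1.36 FPKM in those labelled Tet2 cKO, from 152, 193 and 236 counts and 71, 133 and 138 counts. Every library labelled Tet2 cKO lay below every WT library, and Tet2 cKO replicate 1 was the lowest. The log2 difference was -0.83 (SE 0.244, 95% interval -1.38 to -0.29), and edgeR gave it a Benjamini-Hochberg adjusted p = 0.9999 (unadjusted p = 0.00684). With no filter on low values the same test called Dlk1, at -0.83 with adjusted p = 0.00762, while over the other 13 alternatives its adjusted p was between 0.492 and 1. Leaving out each library in turn gave -0.99 to -0.59, the latter without Tet2 cKO replicate 1, and -0.69 without WT replicate 3.

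The summed level of ependymal markers, like Dlk1, was lower in every library labelled Tet2 cKO, and in bulk tissue fewer cells of a type and less RNA per cell cannot be told apart. For 11 ependymal markers the sum was 66.1, 69.8 and 83.3 FPKM in the WT libraries, against 56.05, 60.05 and 50.05 FPKM in those labelled Tet2 cKO, and the groups did not overlap. All 11 were detected, and the 9 that were tested had log2 differences below 0, with 0 that passed the test. For 6 of the 9, or 66.7%, the groups did not overlap, against 6.8% of all tested genes. The sum of 14 choroid plexus markers was 1422, 849.5 and 455 FPKM in the WT libraries, against 835, 175 and 290 FPKM in the labelled ones, and all 14 were detected, tested and below 0, with 0 that passed. That sum is mostly Ttr, at 1347, 802 and 430 FPKM in WT, against 799, 158 and 269 FPKM in the labelled libraries. The sum of 17 markers of GABAergic and hypothalamic neurons, all detected, was 27.5, 31.6 and 49.8 FPKM in the WT libraries, against 24.0, 44.1 and 29.2 FPKM in the labelled ones. Of the 17, only 8 reached the filter and were tested, with 2 above 0, 6 below and 0 that passed. Some of the others had very few counts, such as Oxt with 1 in all. Within the labelled group Dlk1 and the GABAergic and hypothalamic sum were lowest in replicate 1, the ependymal sum in replicate 3 and the choroid plexus sum in replicate 2. Within WT, Dlk1, the ependymal sum and the GABAergic and hypothalamic sum all rose from replicate 1 to replicate 3, while the choroid plexus sum fell. The part of these markers in the Dlk1 result was not tested.

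No other gene of the locus was lower in every library labelled Tet2 cKO. Meg3 (ENSMUSG00000021268, 109541001 to 109571726 on GRCm38, plus strand) stood at 466, 460 and 459 FPKM in the WT libraries, against 498, 502 and 501 FPKM in those labelled Tet2 cKO. Its groups did not overlap, and the spread within each was small beside the gap, yet the log2 difference of 0.11 (SE 0.0663, 95% interval -0.041 to 0.26) had a Benjamini-Hochberg adjusted p = 0.9999 in edgeR (unadjusted p = 0.139). Leaving out each library in turn gave 0.098 to 0.12. The summed level of 10 astrocyte markers, all detected, also did not overlap. It ranged from 365 to 407 FPKM in the WT libraries, against 410 to 426 FPKM in those labelled Tet2 cKO. The markers did not move together, with 7 above 0 in log2 difference and 3 below. For 5 of the 10, or 50%, the groups did not overlap, against 6.8% of all tested genes. Of these, 4 were higher and 1 lower under the Tet2 cKO label. Farthest from 0 was Aqp4, at 46.7, 43.5 and 28.8 FPKM in WT, against 62.5, 59.8 and 55.3 FPKM in the labelled libraries. Sox9 was lower in every labelled library. Of 10 oligodendrocyte markers 9 were above 0 and 1 below, and of 10 microglia markers 8 were above 0 and 2 below. The summed level of each of these 2 lists overlapped between the groups. The part of astrocyte, oligodendrocyte or microglia markers in the Meg3 result was not tested. Rtl1, a retrotransposon-derived gene expressed from the paternal allele like Dlk1, stood at 1.53, 1.52 and 1.9 FPKM in the WT libraries, against 1.63, 1.97 and 1.79 FPKM in the labelled ones. Rian, a maternal host transcript of small nucleolar RNAs, ranged from 34.2 to 40.4 FPKM in the WT libraries, against 35.6 to 39.5 FPKM in the labelled ones. Mirg, a maternal host transcript of microRNAs, ranged from 5.87 to 8.07 FPKM in the WT libraries, against 5.89 to 6.48 FPKM in the labelled ones. For these 3 genes the groups overlapped. Dlk1 has no exon overlap with another annotated gene, while 6.79% of the exonic bases of Meg3 overlap the predicted gene Gm26906 on the opposite strand.

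**Figure D3:**
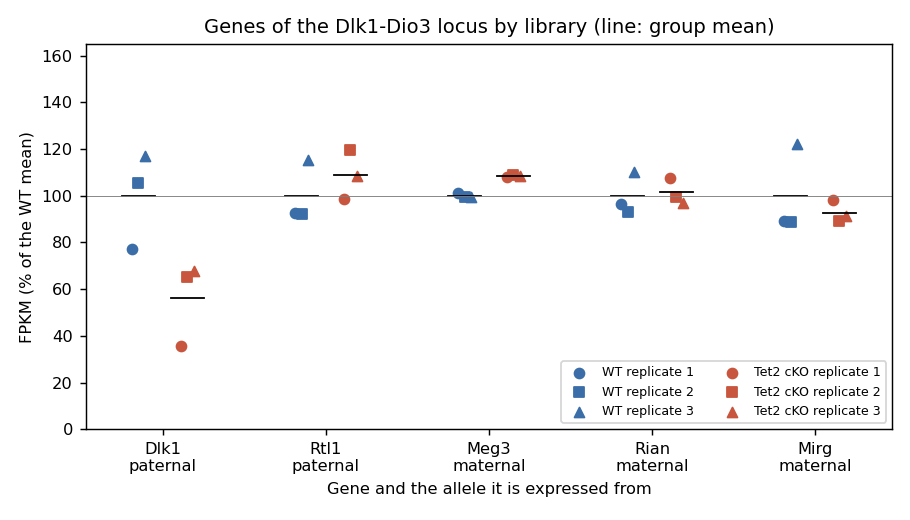
FPKM of 5 genes of the Dlk1-Dio3 locus in each library, as a percentage of that gene's WT mean, with lines at the group means, WT in blue and Tet2 cKO in red. Dlk1 lies at 35.9% to 67.8% in the libraries labelled Tet2 cKO, and Meg3 at 107.9% to 108.7%.

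Ratios within a locus were compared for 6 pairs of neighbours, each expressed from opposite alleles in mouse brain or in certain isoforms. A ratio within a library does not depend on its depth. For Dlk1 over Meg3 the log2 ratio of FPKM was -8.23, -7.76 and -7.61 in the WT libraries, against -9.43, -8.58 and -8.52 in those labelled Tet2 cKO, a difference of -0.98. For Mest over Copg2 it was -1.15, -1.18 and -1.24 in the WT libraries, against -1.46, -1.48 and -1.42 in the labelled ones, a difference of -0.27 with SDs of 0.0494 and 0.0352 (n = 3 each). In both pairs every library labelled Tet2 cKO lay below every WT library. For Dlk1 over Meg3 this and its permutation p follow from the 2 genes alone, whose groups did not overlap in opposite directions. By exact permutation, two-sided, p was 0.1 for each, the smallest it can give with 3 libraries against 3, and adjusted p = 0.3 over the 6 pairs.

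The other 4 pairs overlapped between groups. They were Nnat over Blcap (difference -0.017, exact permutation p = 0.9), Peg13 over Trappc9 (0.03, exact permutation p = 0.8), Zrsr1 over Commd1 (0.22, exact permutation p = 0.4) and Snrpn over Ube3a (-0.037, exact permutation p = 1). The pair of Peg10 and Asb4 was not compared because Asb4 lay under the filter. Exons of 2 of these pairs overlap on opposite strands, Mest and Copg2 by 912 bases and Zrsr1 and Commd1 by 412 bases. The strand setting used in counting is unknown here, so reads from those bases cannot be assigned to either gene.

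**Figure D4:**
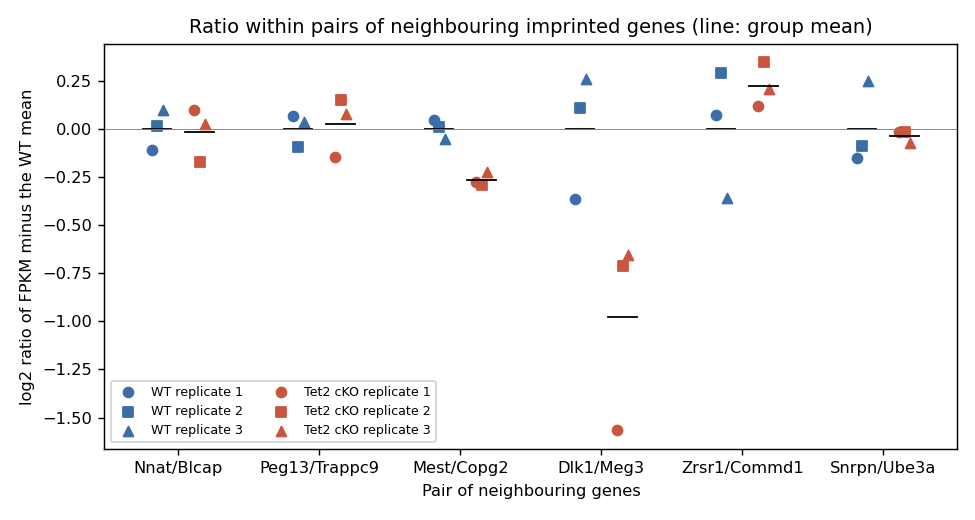
log2 ratio of FPKM within 6 pairs of neighbouring imprinted genes in each library, set to 0 at the WT mean of the pair, with lines at the group means. The libraries labelled Tet2 cKO lie below every WT library for Mest/Copg2 and Dlk1/Meg3, and the groups overlap in the other 4 pairs.

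Mest, which encodes an alpha/beta hydrolase-fold enzyme and is paternally expressed, stood at 7.37, 7.28 and 5.24 FPKM in the WT libraries, against 5.55, 5.90 and 6.28 FPKM in those labelled Tet2 cKO. Copg2, a coatomer subunit gene of vesicle transport, stood at 16.3, 16.5 and 12.4 FPKM in the WT libraries, against 15.3, 16.5 and 16.8 FPKM in the labelled ones. WT replicate 3 was the lowest library for both genes, and the groups overlapped for each gene alone. Mest differed by -0.17 (SE 0.133, Benjamini-Hochberg adjusted p = 0.9999) by the edgeR quasi-likelihood test. Without WT replicate 3 it differed by -0.31 (edgeR adjusted p = 0.614), without WT replicate 1 by -0.086 and without WT replicate 2 by -0.11.

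In the Peg3 locus on chromosome 7, the paternally expressed zinc finger gene Peg3 (ENSMUSG00000002265, 6703892 to 6730431 on GRCm38, minus strand) stood at 64.3, 66.2 and 66.9 FPKM in the WT libraries, against 67.5, 72.7 and 70.1 FPKM in those labelled Tet2 cKO. The groups did not overlap, by a margin of less than 1 FPKM, and the log2 difference was 0.08 (SE 0.0648, edgeR quasi-likelihood adjusted p = 0.9999). Usp29, a gene of the ubiquitin-specific protease family that starts next to Peg3 in the opposite orientation and is also paternally expressed, ranged from 4.25 to 4.59 FPKM in the WT libraries, against 4.33 to 5.07 FPKM in the labelled ones, a log2 difference of 0.10. Zim1, a maternally expressed zinc finger gene, ranged from 1.62 to 2.14 FPKM in the WT libraries, against 1.67 to 2.30 FPKM in the labelled ones. Of the exonic bases of Usp29, 14.3% overlap Zim3 on the opposite strand.

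Zrsr1 (ENSMUSG00000044068, chromosome 11, 22972005 to 22976496 on GRCm38, plus strand), related to the splicing factor U2AF, lies within the gene Commd1 and is paternally expressed. It stood at 19.7, 20.4 and 19.2 FPKM in the WT libraries, against 22.0, 21.1 and 21.7 FPKM in those labelled Tet2 cKO, a log2 difference of 0.12 (SE 0.0654, edgeR quasi-likelihood adjusted p = 0.9999). Commd1, linked to copper handling, ranged from 3.12 to 4.59 FPKM in the WT libraries, against 3.10 to 3.78 FPKM in the labelled ones, and its groups overlapped.

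Genes of the Prader-Willi and Angelman region on chromosome 7 did not separate the groups. Ndn, encoding the neuronal growth suppressor necdin, stood at 74.8, 60.8 and 101.6 FPKM in the WT libraries, against 59.6, 62.6 and 78.4 FPKM in those labelled Tet2 cKO. Its log2 difference of -0.25 (SE 0.171, edgeR quasi-likelihood adjusted p = 0.9999) rested on WT replicate 3, the library in which most habenula markers were lowest, and was -0.019 when that library was left out. The part of those markers was not tested. Omitting WT replicate 2 gave -0.41 and omitting Tet2 cKO replicate 3 gave -0.38. The groups overlapped. Magel2, of the same MAGE protein family, stood at 1.40, 1.13 and 1.31 FPKM in the WT libraries, against 1.16, 1.41 and 1.62 FPKM in the labelled ones. Ube3a, the ubiquitin ligase expressed from the maternal allele in neurons, ranged from 7.41 to 8.38 FPKM in the WT libraries, against 8.30 to 8.53 FPKM in the labelled ones, with a log2 difference of 0.07. Snhg14, whose transcript runs antisense to Ube3a on the paternal allele, ranged from 4.97 to 5.66 FPKM in the WT libraries, against 5.33 to 5.88 FPKM in the labelled ones. Its exons overlap 8.74% of the exonic bases of Ube3a on the opposite strand. Of the exonic bases of Snrpn, 27.3% overlap Gm38393 and 10% overlap Snurf on the same strand. Snurf was listed at 0 in every library, and the counting rule for shared bases is unknown here.

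Cdkn1c, the maternally expressed inhibitor p57 of cyclin-dependent kinases, stood at 3.49, 2.93 and 2.32 FPKM in the WT libraries, against 2.70, 1.61 and 2.33 FPKM in those labelled Tet2 cKO. The groups overlapped, and the log2 difference was -0.40 (SE 0.228, edgeR quasi-likelihood adjusted p = 0.9999). Leaving out each library gave -0.57 to -0.22, with -0.22 without Tet2 cKO replicate 2 and -0.25 without WT replicate 1. Of its exonic bases, 30.6% overlap Gm44732 on the opposite strand. Peg10, derived from a retrotransposon, stood at 5.24, 6.99 and 6.30 FPKM in the WT libraries, against 4.68, 5.11 and 6.59 FPKM in the labelled ones, a log2 difference of -0.19 (SE 0.142). Omitting Tet2 cKO replicate 1 gave -0.082 and omitting WT replicate 2 gave -0.094. Omitting WT replicate 1 gave -0.29 and omitting Tet2 cKO replicate 3 gave -0.34. Sgce, encoding epsilon-sarcoglycan, starts beside Peg10 in the opposite orientation and was even across libraries, at 2.35 to 2.54 FPKM in the WT libraries, against 2.37 to 2.53 FPKM in the labelled ones. Ppp1r9a, the gene of the synaptic actin-binding protein neurabin, ranged from 8.23 to 10.5 FPKM in the WT libraries, against 8.64 to 10.6 FPKM in the labelled ones.

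The remaining tested genes overlapped between the groups. Plagl1, a zinc finger transcription factor gene, ranged from 3.14 to 3.50 FPKM in the WT libraries, against 2.74 to 3.26 FPKM in those labelled Tet2 cKO, a log2 difference of -0.12 (SE 0.0983). H13, encoding signal peptide peptidase, ranged from 8.50 to 9.20 FPKM in the WT libraries, against 7.86 to 8.95 FPKM in the labelled ones, a log2 difference of -0.077. Neither passed the test. The non-coding RNA Peg13 ranged from 52.3 to 66.2 FPKM in the WT libraries, against 55.2 to 70.1 FPKM in the labelled ones. Trappc9, the trafficking complex gene in whose body it lies, ranged from 5.73 to 7.89 FPKM in the WT libraries, against 6.86 to 7.40 FPKM in the labelled ones. In both of these WT replicate 3 was the lowest library. Rasgrf1, a neuronal activator of Ras, ranged from 29.97 to 34.8 FPKM in the WT libraries, against 31.7 to 36.9 FPKM in the labelled ones.

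Gnas, which encodes the stimulatory G protein alpha subunit, ranged from 59.7 to 65.4 FPKM in the WT libraries, against 61.2 to 61.9 FPKM in the labelled ones. Grb10, an adaptor that restrains insulin receptor signalling, ranged from 17.7 to 19.1 FPKM in the WT libraries, against 18.1 to 19.7 FPKM in the labelled ones. The groups overlapped for both. Blcap, in whose intron Nnat lies, ranged from 37.2 to 39.5 FPKM in the WT libraries, against 38.3 to 43.3 FPKM in the labelled ones. Inpp5f, an inositol phosphatase gene, ranged from 18.97 to 20.2 FPKM in the WT libraries, against 19.4 to 20.4 FPKM in the labelled ones. Zdbf2, a zinc finger gene, ranged from 4.81 to 5.42 FPKM in the WT libraries, against 4.73 to 6.23 FPKM in the labelled ones. A whole-gene count adds up the isoforms of Gnas, Grb10 and Inpp5f, which use different alleles.

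The 8 genes under the filter had few counts. Mkrn3, a makorin RING finger gene of the Prader-Willi region, had 29, 33 and 17 counts in the WT libraries, against 34, 34 and 30 in those labelled Tet2 cKO. Asb4, a gene of the ankyrin repeat and SOCS box family, had 18, 20 and 42 counts in the WT libraries, against 30, 31 and 34 in the labelled ones, and the organic cation transporter gene Slc22a18 had between 5 and 13 counts in any library. All 3 overlapped between the groups. Slc38a4, an amino acid transporter gene, had 6, 11 and 10 counts in the WT libraries, against 14, 17 and 9 in the labelled ones. Airn, the paternal non-coding RNA that silences Igf2r in most mouse tissues, had 10, 12 and 15 counts in the WT libraries, against 16, 18 and 28 in the labelled ones. Slc38a4 overlapped between the groups, and in Airn every labelled library had more counts than every WT library. H19, a maternally expressed long non-coding RNA, had 1 count in all in the WT libraries, against 4 in the labelled ones. Calcr, the calcitonin receptor gene, had at most 8 counts in a library. Phlda2, a gene that restrains placental growth, had 0 counts in every library, where a count of 0 allows up to 3 counts a library. The limit from a count of 0 covers counting error only.

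The coefficient of variation over 6 libraries, a measure of how unevenly a gene was expressed, had a median of 9.08% in the 33 tested genes (quartiles 5.25% and 13.5%) and of 9.37% in all 14539 (quartiles 6.23% and 14.8%). It was lowest for Inpp5f (2.95%), Gnas and Sgce (3.24% and 3.25%) and highest for Dlk1 (37.7%), Cdkn1c (24.9%) and Ndn (22.0%).

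Other imprinted genes and the factors that maintain imprints also held no call. Of 45 further imprinted genes 44 were found and 25 tested, of which 0 passed the edgeR quasi-likelihood test in either direction and 0 had an unadjusted p under 0.05. Their median log2 difference was -0.0034, with 12 higher and 13 lower. The 4 with the smallest p were Pon2, Mcts2, Htr2a and Sfmbt2, at -0.16, 0.19, 0.16 and 0.11. Mcts2, a retrogene that lies in an intron of H13 and is expressed from the paternal allele, stood at 9.32, 9.75 and 10.5 FPKM in the WT libraries, against 11.7, 11.3 and 10.9 FPKM in those labelled Tet2 cKO. Its groups did not overlap, as the only one of the 25, or 4%, against 6.8% of all tested genes. Igf2r, the partner of Airn that is maternally expressed in most mouse tissues, differed by -0.031 (SE 0.114). Of 24 genes for imprint maintenance and DNA methylation 18 were tested and 0 passed. Apart from Tet2, the 3 with the smallest p were the maintenance methyltransferase gene Dnmt1 (-0.12, SE 0.0803), the thymine DNA glycosylase gene Tdg (0.19, SE 0.161) and Rbbp5 (-0.075, SE 0.0698).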

How the data were processed

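The tools named by the submitters' processing notes are HISAT2 2.0.1, SAMtools 0.1.19, cutadapt 1.9.1 and FastQC 0.10.1, and the build is mm10. For the read counter, its annotation and its strand setting, the entry is: not given in the sources used here. The deposited table holds raw counts per gene and library. Beside them stand the authors' FPKM values, per the file headers, which equal the count scaled to exonic size and library total within 0.0051 for 100% of values.

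The 14539 genes whose mean reached 1 FPKM were tested on the counts with edgeR 4.0.16 (R 4.3.3; quasi-likelihood, TMM, two-sided, no covariate) and Benjamini-Hochberg adjustment at 0.05. Alternatives were DESeq2 1.42.0, limma 3.58.1 on log2(FPKM + 1) and log2(FPKM + 0.1), other scalings and filters, a replicate block and leaving out each library. The common biological coefficient of variation was 10.4%. On simulated counts of these 14539 genes, edgeR recovered 65.7% of genes changed 1.5-fold and 91.0% of those changed 2-fold, and 6.11% of its 180 calls were false. Many genes were changed at once there, which eases the adjusted threshold. In the real data edgeR called 0 genes, with a smallest Benjamini-Hochberg adjusted p of 0.113. The recovered shares are therefore not the chance of detecting a single changed imprinted gene here.

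The imprinted genes, their allele classes, the pairs and the other lists were chosen with earlier results of these data known. Log2 differences with errors are printed for tested genes whose groups do not overlap, filled to 12 by smallest p, for 4 genes of each further list and for Tet2; other differences named were picked with their values known. Positions are those of GENCODE release M21 on GRCm38, joined by gene identifier.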

Additional observations from a re-analysis of the deposited data

Results flagged for a closer look

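Airn lay under the expression filter and so outside the test, yet each library labelled Tet2 cKO had more counts (16, 18 and 28) than each WT library (10, 12 and 15), 62 against 37 in all. In edgeR without a filter its log2 difference was 0.68 (SE 0.412, Benjamini-Hochberg adjusted p = 0.970). The flag was set only for a gene under the filter with more counts in every labelled library, so a gene lower in all of them could not be flagged. Airn was the only such gene of the 8 under the filter. Among the genes above the filter, every library labelled Tet2 cKO was the higher by FPKM in 3.34%. That share is not one for genes with so few counts.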

How the results depend on the processing

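Under 14 alternatives, the log2 differences of the 20 genes named by the rule kept their sign in all 280 recomputed values, and 279 stayed on the same side of the threshold. The exception was Dlk1, called with no filter on low values (-0.83, adjusted p = 0.00762). That the 4 genes whose groups do not overlap keep their sign without a library follows from how they were chosen. The other genes, apart from Tet2, were picked by smallest p within their list, which also favours a kept sign. In edgeR the adjusted p of all 20 was 0.9999, so staying on the same side of the threshold says little. Without a filter, 1 of 40 imprinted genes was called and 3 had an unadjusted p under 0.05. Over all genes 49 were called and 1109 had an unadjusted p under 0.05, of a total not given here. DESeq2 called 4 genes and filterByExpr gave 2. Leaving out each library gave 0 to 3 calls over all genes, 228 to 865 genes at an unadjusted p under 0.05 (the highest without WT replicate 3, the lowest without Tet2 cKO replicate 3) and 1 to 3 imprinted genes at an unadjusted p under 0.05, numbering 3 without WT replicate 3 and 2 without WT replicate 2 or Tet2 cKO replicate 3. It gave medians of -0.0030 to 0.058 for paternally expressed genes, the lowest without Tet2 cKO replicate 3, and of 0.01 to 0.08 for maternally expressed genes. The cause was not tested. With the replicate block 0 genes were called over all genes, 346 had an unadjusted p under 0.05 and Dlk1 was at -0.86 (adjusted p = 0.873). Deviations of libraries sharing a number correlated at -0.028, 0.15 and -0.098, and those of libraries with different numbers at -0.18 to 0.17. So few values cannot tell whether the numbers pair the libraries. Depth limits the 8 genes under the filter, which had at most 42 counts in a library.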

Other observations

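WT replicate 3 was the highest library for 10 and the lowest for 10 of the 33 tested imprinted genes. Tet2 cKO replicate 3 was the highest for 7 and the lowest for 0. Calcr, the calcitonin receptor gene and a maternally expressed gene, had 8 counts in WT replicate 3, 1 in WT replicate 2 and 0 in the other 4 libraries.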
